A study of Mus musculus with 9 samples.

Results

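The growth hormone axis of the liver and its IGF binding proteins were followed through 10 genes in liver RNA of mice. The genes were chosen by name for their place in the pathway, and they are 10 of the 23440 genes listed in the deposited tables. They comprise the receptors Ghr and Prlr, the signal transducer Stat5b, the feedback inhibitor Socs2, the repressor Bcl6, the products Igf1 and Igfals, and the binding protein genes Igfbp1, Igfbp2 and Igfbp4. RNA sequencing covered 9 liver libraries of C57Bl6 mice, with 3 libraries in each of 3 groups. The first group was 20 to 22 months old and ate chow holding PD-0332991, labelled 450 mg/k, for 2 weeks. The second was the untreated aged group of 20 to 22 months, and the third was the untreated young group of 2 months. PD-0332991, also called palbociclib, blocks the kinases CDK4 and CDK6 that start the cell cycle, and the series title concerns Cdk4 and the fatty liver of old age. The drug was given to the whole animal, so the liver was not its only possible target. The labels name no transgene or deletion in any group, and they do not state the sex of the mice. The Y-linked gene Ddx3y lay between 5.83 and 8.48 TPM over the 9 libraries, and Xist was at most 0.0125 TPM.

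Growth hormone from the pituitary binds GHR on hepatocytes, which activates the kinase JAK2 and through it the transcription factor STAT5B. STAT5B drives Igf1, Igfals and the feedback inhibitors Socs2 and Cish, and it represses Bcl6, whose product can occupy STAT5 sites as a repressor. IGF1 made by the liver circulates bound to IGF binding proteins, mainly in a complex with IGFBP3 and the acid-labile subunit encoded by Igfals. The pattern of growth hormone release differs between male and female mice, and many liver genes that differ between the sexes depend on it. Igfbp1 is a FOXO target that insulin represses and fasting raises, and hepatic Igfbp2 is also lowered by insulin.

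The labelled tissue was checked first. Of 8 hepatocyte marker genes 7 had signal, and their sum lay between 18962 and 22635 TPM in PD-0332991 livers, between 18763 and 23295 TPM in aged livers, and between 23234 and 24694 TPM in young livers. The remaining marker, Alb, was listed at 0 in all 9 libraries, so a value of 0 is read here only as listed at 0. TPM, a relative transcript abundance, is a level already divided by transcript length and library size. Such values keep no depth, so the number of reads behind each is unknown. All 10 genes passed the filter, which asked for 1 TPM in at least 3 libraries, as did 10161 genes in all. In bulk liver RNA, fewer cells of a type and less RNA per cell cannot be told apart.

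The third aged library stood apart from the other 2 aged libraries in several genes of this pathway. It held 34.5 times less Socs2 and 24.0 times less Cish than the mean of the other 2 aged livers, and 21.1 times less Onecut1, a liver transcription factor gene. In the opposite direction it held 2.21 times more Bcl6 and 3.39 times more Igfbp1. Ghr was 1.21 times, Stat5b 1.29 times and Igf1 1.02 times the mean of the other 2 aged livers. The first aged library stood apart in another way: its summed level of 18 acute-phase genes was 40590 TPM, against 18588 and 12336 TPM in the other 2 aged livers, and its 6 neutrophil markers summed to 24.9 TPM, against 8.73 and 8.59 TPM. Values without the third or the first aged library are given beside the results that these libraries change most. Which list values to give without them was chosen after the values were seen, and leaving out a library that stands apart also lowers the spread that the test uses. An unadjusted p under 0.05 (limma) was reached by 1523 of 10161 genes in aged against young livers with all 9 libraries. Without the third aged library 2260 genes reached it, and without the first 1105. For treated against aged livers these counts were 1854, 2002 and 1876, and for treated against young livers 2524, 2923 and 2531.

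The starts of these genes were searched for the letters that STAT5, BCL6 and FOXO factors are known to recognise. The palindrome TTCNNNGAA, the core of STAT5 and BCL6 sites, reads alike on both strands. It was searched in the RefSeq promoter windows of build GRCm38.p6, each holding 250 bases before and 50 bases from a transcript start. It occurred in 2726 of 32851 windows, or 8.30%. Of the 10 genes 9 had an entry, with 17 windows in all, and 5 of these windows held the palindrome. They belonged to Prlr, Bcl6 and Igfals. The insulin response half-site CAAAANAA, searched on both strands, occurred in 7.95% of all windows and in 1 window of the set, at Igfbp1. A match is a run of letters and does not show that a factor binds there. The upstream sequences of Bcl6, Igfals and Igfbp1 are shown because these genes held a match and had groups that did not overlap in at least 1 comparison, and a short stretch of Cish, a classical STAT5 target outside the set, is shown for comparison. Capitals mark the matches, and each sequence runs 5′ to 3′ on the strand of the gene.
Bcl6, chr16:23988853-23989102, minus strand: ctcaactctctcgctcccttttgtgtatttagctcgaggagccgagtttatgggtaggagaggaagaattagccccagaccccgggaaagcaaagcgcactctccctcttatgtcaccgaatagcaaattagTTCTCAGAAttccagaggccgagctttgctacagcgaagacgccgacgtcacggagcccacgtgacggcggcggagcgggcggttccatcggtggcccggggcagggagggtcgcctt
Igfals, chr17:24877981-24878230, plus strand: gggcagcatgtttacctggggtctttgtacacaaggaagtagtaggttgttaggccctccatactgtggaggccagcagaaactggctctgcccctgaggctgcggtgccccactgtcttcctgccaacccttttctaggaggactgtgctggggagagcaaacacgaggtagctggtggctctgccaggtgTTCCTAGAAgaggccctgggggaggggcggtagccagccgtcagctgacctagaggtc
Igfbp1, chr11:7197537-7197786, plus strand: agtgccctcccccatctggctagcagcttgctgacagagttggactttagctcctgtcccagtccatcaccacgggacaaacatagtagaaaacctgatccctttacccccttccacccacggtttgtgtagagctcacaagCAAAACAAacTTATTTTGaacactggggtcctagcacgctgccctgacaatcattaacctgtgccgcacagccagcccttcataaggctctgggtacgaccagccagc
Cish, chr9:107296653-107296678, plus strand: ccagttTTCCTGGAAagTTCTTGGAA
In the stretches shown, the Bcl6 match spans positions -118 to -110 from the transcript start, and the Igfals match spans -58 to -50. Another Bcl6 window, not shown, held palindromes that begin at -168, -122 and -88. Another Igfals window, also not shown, held a palindrome that begins at -236. In the Igfbp1 window the half-site stands at -108 to -101 on the gene strand and, on the opposite strand, at -98 to -91, with a short spacer between them. The Cish stretch, from -6 to +20, holds 2 palindromes close together. Neither motif was found in the windows of Igfbp2.

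Across all 9 livers the 10 genes spanned a wide range of levels. Mean TPM ran from 579.7 for Igfbp4 and 430.8 for Igfbp2 through 146.6 for Igf1, 141.5 for Ghr and 53.8 for Igfals to 25.1 for Igfbp1. The regulators were lower, with a mean of 18.9 for Socs2, 12.3 for Prlr, 8.46 for Stat5b and 7.87 for Bcl6. The range over the 9 livers did not overlap between Igfbp2 and Igf1 or between Ghr and Igfals, while every other pair of neighbours in this order overlapped. The genes also differed in how steady they were. The highest library exceeded the lowest 47.6-fold for Socs2, 10.1-fold for Igfbp1 and 3.11-fold for Bcl6, against 1.29-fold for Igfbp4, 1.37-fold for Ghr and 1.43-fold for Igf1.

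**Figure D1:**
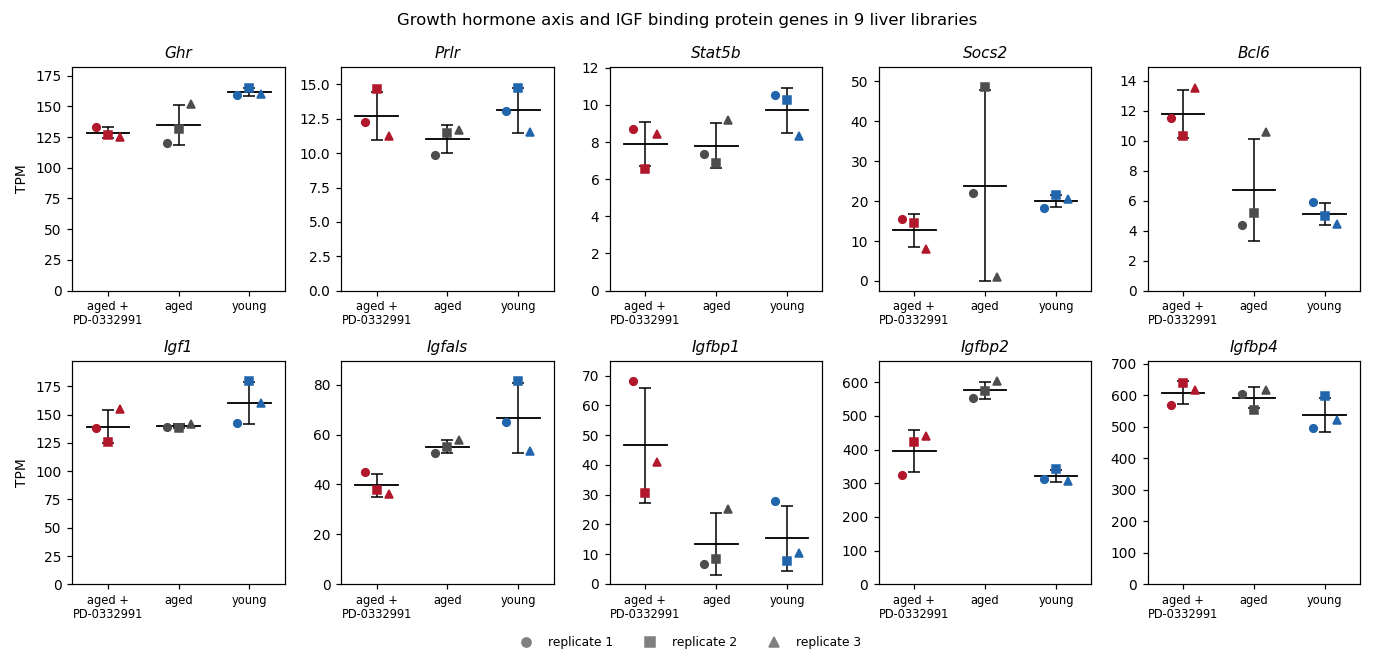
Level of each of the 10 genes in TPM (linear axis, a scale for each gene) in every library, with PD-0332991 livers left, aged livers in the middle and young livers right; symbols are libraries, long lines group means and error bars the SD (n = 3). Igfbp2 is highest in the 3 aged livers, and Socs2 spreads from 1.02 to 48.7 TPM among them.

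The first comparison asked what changed with age. Igfbp2 was the only gene of the 10 called at an adjusted p under 0.05, and it was higher in aged livers. This is 1 of 10 genes, where 1.1% of all genes tested were called, 0.65% higher and 0.453% lower. The 2 groups did not overlap in 3 of the 10 genes, against 18.4% of all genes, of which 8.82% were higher and 9.57% lower. Igfbp2 lay above and Ghr and Igf1 lay below the young range in every aged library. The median log2 difference was -0.23 over the 10 genes and -0.01 over all genes tested.

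The second comparison asked what 2 weeks of the drug did in aged livers. Igfbp2 was again the only gene called, and here it was lower in PD-0332991 livers than in aged livers. The share called was 1.45% over all genes tested, with 0.61% higher and 0.837% lower. Groups did not overlap in 3 of 10 genes, against 22.4% of all genes (5.72% higher and 16.7% lower): Igfbp1 was higher in every treated library, and Igfals and Igfbp2 were lower. The median log2 difference was 0.03 over the 10 genes and -0.09 over all genes.

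Treated aged livers were also set against young livers. Bcl6 was called higher and Igfals lower in PD-0332991 livers, where 6.88% of all genes were called, 2.59% higher and 4.29% lower. The groups did not overlap in 5 of 10 genes, against 33.9% of all genes, 9.55% higher and 24.4% lower. Bcl6 and Igfbp1 lay above the young range, while Ghr, Socs2 and Igfals lay below it. The median log2 difference was -0.12 over the 10 genes and -0.10 over all genes. Any pair of these comparisons shares the libraries of a group, so their differences are not independent and are only given side by side.

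**Figure D2:**
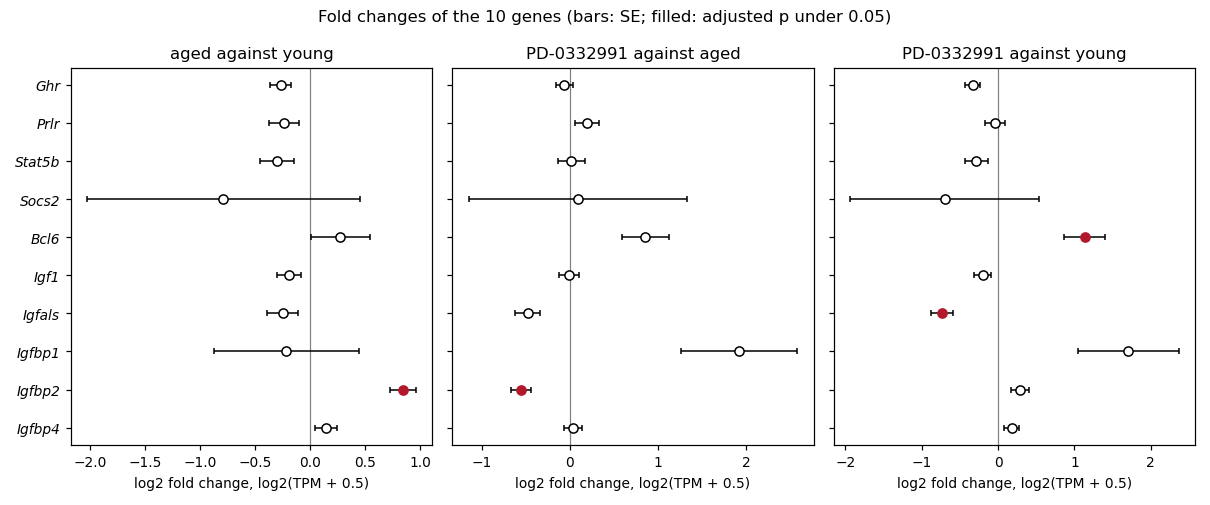
Log2 fold change with its standard error (limma, log2(TPM + 0.5) scale) for each of the 10 genes from left to right in aged against young, treated against aged and treated against young livers, with an axis range for each panel; filled symbols are called at adjusted p under 0.05. Igfbp2 stands at 0.84 in aged against young livers and at -0.55 in PD-0332991 against aged livers.

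Ghr encodes the growth hormone receptor and lies on chromosome 15 (3317760 to 3583492, minus strand, mm10, GENCODE annotation), a protein-coding gene like the other 9. It stood at 133, 127 and 125 TPM in PD-0332991 livers, at 120.3, 131 and 152 TPM in aged livers, and at 159, 165 and 160.3 TPM in young livers. All 6 aged livers, treated or not, lay below all 3 young ones, and treated and untreated aged livers overlapped. Against young livers the log2 difference was -0.33 ± 0.10 (SE) in treated livers (adjusted p = 0.0673, limma) and -0.27 ± 0.10 in aged livers (adjusted p = 0.237), so neither was called. Without the third aged library, the highest of its group, Ghr was called lower in both (limma, adjusted p = 0.0258 for treated and 0.0410 for aged livers against young). The drug difference within aged livers was -0.06 ± 0.10 (limma, adjusted p = 0.791). Deposited values are per gene, so the full-length receptor and the soluble binding protein made from the same gene in mice are not separated.

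Prlr encodes the prolactin receptor, which also signals through JAK2 and STAT5, and lies on chromosome 15 (10177238 to 10349180, plus strand). Of its exon bases 1.32% are shared with another annotated gene. It stood at 12.3, 14.7 and 11.3 TPM in PD-0332991 livers, at 9.86, 11.5 and 11.7 TPM in aged livers, and at 13.1, 14.8 and 11.5 TPM in young livers. The groups overlapped in every pair. The log2 difference was -0.24 ± 0.13 for aged against young livers (limma, adjusted p = 0.437), and 0.20 for treated against aged livers (limma, adjusted p = 0.459).

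Stat5b, on chromosome 11 (100780731 to 100850724, minus strand), encodes the transcription factor that carries most of the growth hormone signal in hepatocytes. It stood at 8.70, 6.55 and 8.41 TPM in PD-0332991 livers, at 7.35, 6.86 and 9.17 TPM in aged livers, and at 10.6, 10.3 and 8.32 TPM in young livers. Both aged groups overlapped with young livers and with each other. The log2 difference was -0.30 ± 0.15 for aged against young livers (limma, adjusted p = 0.381) and 0.02 for treated against aged livers (limma, adjusted p = 0.967). These are levels of the transcript, and phosphorylation of STAT5B, which switches the protein on, was not measured.

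Socs2, on chromosome 10 (95385362 to 95417180, minus strand), encodes an inhibitor of growth hormone signalling that STAT5B itself induces. It stood at 15.5, 14.4 and 8.03 TPM in PD-0332991 livers, at 21.9, 48.7 and 1.02 TPM in aged livers, and at 18.3, 21.4 and 20.5 TPM in young livers. Aged livers held both the highest and the lowest value of all 9, and every treated liver lay below every young liver. The coefficient of variation was 31.9% in treated, 100% in aged and 7.9% in young livers. The log2 difference was -0.70 for treated against young livers (limma, adjusted p = 0.778) and 0.09 for treated against aged livers (limma, adjusted p = 0.979). For aged against young livers it was -0.79 ± 1.24 (limma, adjusted p = 0.827). Without the third aged library the signs turned, to -1.39 for treated against aged livers and to 0.69 for aged against young livers, and neither was called. The difference of treated from young livers then had an adjusted p of 0.236 (limma), and of 0.0784 with only these 2 groups in the fit.

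Cish, another feedback inhibitor that STAT5 induces, was read beside Socs2 because its start carries the paired palindromes shown above. It stood at 4.62, 4.69 and 3.40 TPM in PD-0332991 livers, at 26.5, 34.9 and 1.28 TPM in aged livers, and at 30.9, 32.2 and 10.4 TPM in young livers. Every treated liver lay below every young liver and below the first 2 aged livers, while the third aged liver was the lowest of all 9. The log2 difference was -2.25 ± 1.18 for treated against young livers (limma, adjusted p = 0.297) and -1.34 for treated against aged livers (limma, adjusted p = 0.602). Onecut1 was likewise lowest in the third aged liver, with 3.56, 3.51 and 3.05 TPM in treated livers, 19.4, 19.0 and 0.913 TPM in aged livers, and 15.9, 12.8 and 14.9 TPM in young livers. Its log2 difference was -1.95 ± 1.01 for treated against young livers (limma, adjusted p = 0.289). With all 9 libraries both genes, like Socs2, missed the threshold in all 3 comparisons. Without the third aged library Cish was called lower in treated livers, by -2.72 ± 0.50 against aged livers (limma, adjusted p = 0.0425) and by -2.25 ± 0.45 against young livers (adjusted p = 0.0265). Onecut1 was then called lower too, by -2.35 ± 0.13 against aged livers (limma, adjusted p = 2.38e-06) and by -1.95 ± 0.12 against young livers (adjusted p = 5.65e-06). For aged against young livers the signs turned without that library, to 0.47 for Cish (limma, adjusted p = 0.659) and 0.40 for Onecut1 (adjusted p = 0.0885).

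**Figure D3:**
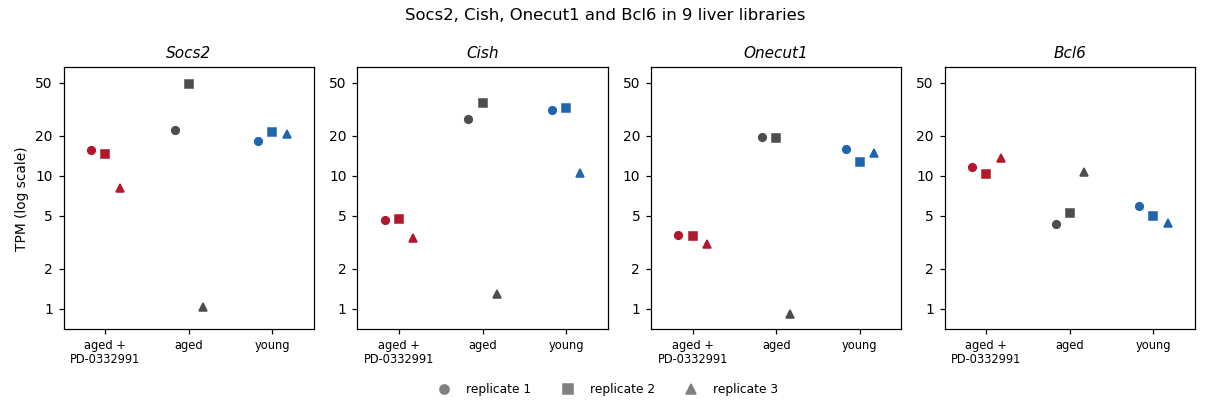
TPM (log axis) of Socs2, Cish, Onecut1 and Bcl6 in each library, with PD-0332991 livers left, aged livers in the middle and young livers right, and a symbol for each replicate number, which does not pair libraries. The third aged liver is the lowest of all 9 for Socs2, Cish and Onecut1 and the highest of its group for Bcl6.

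Bcl6, on chromosome 16 (23965052 to 23988852, minus strand), encodes a repressor that is low where growth hormone signalling through STAT5 is continuous. It stood at 11.5, 10.3 and 13.5 TPM in PD-0332991 livers, at 4.35, 5.20 and 10.6 TPM in aged livers, and at 5.90, 4.997 and 4.41 TPM in young livers. All treated livers lay above all young livers, and the third aged liver lay within the treated range. Against young livers Bcl6 was 2.19-fold higher in treated livers (log2 difference 1.13 ± 0.26, limma, adjusted p = 0.0323). That call rests on all 6 libraries: it was lost on leaving out the first, second or the third treated library (limma, adjusted p = 0.0749, 0.0830 and 0.105) or the first, second or the third young library (0.0744, 0.0882 and 0.116). Against aged livers the difference was 0.86 (limma, adjusted p = 0.133), and without the third aged library it was 1.22 and called (limma, adjusted p = 0.00203). Aged and young livers differed by 0.27 ± 0.26 (limma, adjusted p = 0.680), and by -0.08 without that library. Lymphocytes also express Bcl6. The summed level of 6 lymphocyte markers was 0.740 to 2.32 TPM in treated livers, 0.896 to 5.72 TPM in aged livers and 2.20 to 3.81 TPM in young livers, with the highest sum in the third aged library.

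Igf1, on chromosome 10 (87858265 to 87937042, plus strand), encodes the growth factor that the liver secretes in response to growth hormone. It stood at 138, 126 and 155 TPM in PD-0332991 livers, at 139, 139 and 142 TPM in aged livers, and at 142, 179 and 160.0 TPM in young livers. The aged livers lay within a narrow band just below the lowest young liver, and the treated range enclosed the aged one. The log2 difference was -0.19 ± 0.11 for aged against young livers (limma, adjusted p = 0.449), -0.01 for treated against aged livers (limma, adjusted p = 0.976), and -0.20 for treated against young livers (limma, adjusted p = 0.282). Igf1 was thus not called in any comparison.

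Igfals, on chromosome 17 (24865997 to 24882010, plus strand), encodes the acid-labile subunit that holds IGF1 in its large circulating complex. It stood at 44.9, 37.9 and 36.0 TPM in PD-0332991 livers, at 52.8, 55.0 and 57.8 TPM in aged livers, and at 65.1, 81.3 and 53.6 TPM in young livers. All treated livers lay below all aged and all young livers, and aged livers overlapped with young ones. Igfals fell to 0.603 of the young level in treated livers (log2 difference -0.73 ± 0.14, limma, adjusted p = 0.0148). The call was lost without the second or the third treated library (limma, adjusted p = 0.0641 and 0.0589) or the first young library (0.0562). Against aged livers the difference was -0.48 ± 0.14 (limma, adjusted p = 0.118), and for aged against young livers it was -0.25 ± 0.14 (limma, adjusted p = 0.449).

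Igfbp1, on chromosome 11 (7197782 to 7202546, plus strand), encodes a binding protein that restrains free IGF1 when insulin is low. It stood at 68.1, 30.6 and 41.1 TPM in PD-0332991 livers, at 6.71, 8.23 and 25.3 TPM in aged livers, and at 27.8, 7.76 and 10.4 TPM in young livers. Each treated liver exceeded each untreated liver of either age. The size was 3.79-fold against aged livers (log2 difference 1.92 ± 0.66, limma, adjusted p = 0.200) and 3.26-fold against young livers (1.71, limma, adjusted p = 0.169). Neither was called, and libraries of a group differed widely, with coefficients of variation of 41.5% in treated, 77.0% in aged and 70.9% in young livers. Without the third aged library the difference from aged livers was 2.49 (limma, adjusted p = 0.0945). Aged and young livers differed by -0.22 ± 0.66 (limma, adjusted p = 0.917), and by -0.78 without that library (limma, adjusted p = 0.521).

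Igfbp2, on chromosome 1 (72824503 to 72852474, plus strand), encodes a binding protein made in quantity by the liver. It stood at 326, 422 and 439 TPM in PD-0332991 livers, at 552, 573 and 602 TPM in aged livers, and at 314, 342 and 308 TPM in young livers. The 3 aged livers were the highest of all 9, and the lowest treated liver lay within the young range. Igfbp2 was 1.79-fold higher in aged than in young livers (log2 difference 0.84 ± 0.12, limma, adjusted p = 0.00798). Without the first young library the difference was 0.83 and the call was lost narrowly (limma, adjusted p = 0.0514).

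In treated livers Igfbp2 fell to 0.682 of the level in aged livers (log2 difference -0.55 ± 0.12, limma, adjusted p = 0.0424). This call was marginal. It was lost on leaving out any library other than the third aged one, with limma adjusted p of 0.0954, 0.0971 and 0.0723 without the first, second and the third treated library, and 0.0522 and 0.118 without the first and second aged library. Without the first, second or the third young library, which enter this contrast only through the shared spread, the limma adjusted p was 0.0736, 0.0665 and 0.0698. It was also lost with median-of-ratios scaling (limma, log2 difference -0.45, adjusted p = 0.0959), with no filter on low values (0.0834) and with only the aged groups fitted (0.117). Treated livers stood 0.29 ± 0.12 above young livers on the log2 scale (limma, adjusted p = 0.149), and without the first treated library this was 0.42 and called (limma, adjusted p = 0.0462).

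Igfbp4, on chromosome 11 (99041244 to 99054392, plus strand), encodes a binding protein that inhibits IGF action until a protease cuts it. It was the steadiest of the set, with 569, 638 and 619 TPM in PD-0332991 livers, 605, 555 and 617 TPM in aged livers, and 495, 599 and 520.4 TPM in young livers. All groups overlapped. The log2 difference was 0.14 ± 0.10 for aged against young livers (limma, adjusted p = 0.536) and 0.04 for treated against aged livers (limma, adjusted p = 0.871). Among the 3 binding proteins, Igfbp2 was thus the one called with age.

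Genes whose levels followed those of a member most closely were found by the mean absolute difference of centred log2 values over the 9 libraries, among 5667 genes. Nearest to Igfbp2 were Spint2, Crip2 and Gsta2, at a distance of 0.12 to 0.13. Nearest to Igfals were Slc4a2, Acy1 and Slc35b2, at 0.10 to 0.11. Those nearest to Bcl6 were Zfp36, Hamp and Zfp707, at 0.18 to 0.19, and those nearest to the steady Igf1 were Pcmtd1, Commd1 and Azgp1, at 0.044 to 0.055. Distances were not scaled to how much a gene varies, so they do not compare closeness between members. The mean absolute deviation of the gene itself was 0.33 for Igfbp2, 0.27 for Igfals, 0.56 for Bcl6 and 0.115 for Igf1.

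The pathway around these genes was described with a list of 34 others, of which 26 passed the filter. Between aged and young livers 1 of the 26 was called, Lifr, the gene of a cytokine receptor chain for leukaemia inhibitory factor. The share called over all genes tested was 1.1%. Lifr averaged 49.5 ± 8.53 TPM in aged livers and 101 ± 12.0 TPM in young livers (SD, n = 3 each), a log2 difference of -1.02 (limma, adjusted p = 0.00689). It was called in every fit that left out 1 library. Fgf21, a hormone gene of the liver whose product restrains growth hormone signalling, averaged 0.259 TPM in aged and 3.07 TPM in young livers without a call (log2 difference -2.04, limma, adjusted p = 0.0660). The median log2 difference of the list was -0.09. Between PD-0332991 and aged livers none of the 26 was called by limma, and 5 had an unadjusted p under 0.05, with a median of 0.10. In this comparison 1854 of all 10161 genes tested had an unadjusted p under 0.05 (limma). There, 2 of the 26 were called higher without the third aged library, Stat3 and Socs3, and 2 lower, Cish and Onecut1. In aged against young livers 4 were then called higher, Stat3, Ptpn1, Hnf4a and Trim24, and Lifr lower. In that fit 6 of the 26 had an unadjusted p under 0.05 (limma) in treated against aged livers, and 2002 of all genes tested did. For aged against young livers 12 of the 26 and 2260 of all genes tested did. Calls over all genes also moved with the library left out, as given in the last section, so these counts are not read as a result about the list.

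Between PD-0332991 and young livers 5 of the 26 were called higher and 1 lower, where 2.59% of all genes were called higher and 4.29% lower. The median was -0.08, against -0.10 over all genes. The counts were 6 higher and 3 lower without the third aged library, with Hnf4a, Cish and Onecut1 added. The shares above are from the fit with all libraries. Without that library 2923 of all genes tested had an unadjusted p under 0.05 (limma), against 2524 with it. Of the 26 genes 14 did, against 12 with it. Stat3, a transcription factor that acts downstream of interleukin 6, averaged 39.3 ± 0.941 TPM in treated, 24.4 ± 6.20 TPM in aged and 15.5 ± 0.793 TPM in young livers (SD, n = 3 each). Its log2 difference against young livers was 1.31 ± 0.16 (limma, adjusted p = 0.00215), and every fit that left out 1 library called it. Socs3, a feedback inhibitor of cytokine signalling, averaged 18.2 ± 2.84 TPM in treated, 5.69 ± 2.58 TPM in aged and 3.92 ± 1.33 TPM in young livers. Socs3 thus rose in treated livers, while the related Socs2 lay below the young range without being called. The Socs3 log2 difference against young livers was 2.12 ± 0.36 (limma, adjusted p = 0.0128, and 0.0624 without the second treated library), and against aged livers it was 1.69 (limma, adjusted p = 0.0571, and 1.27 with 0.0189 without the third aged library).

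The other genes called higher against young livers were Irs2, an adaptor of the insulin receptor (log2 difference 1.37, limma, adjusted p = 0.00809), Trim24, a transcriptional cofactor (1.49, adjusted p = 0.0137), and Ptpn1, a tyrosine phosphatase that acts on JAK2 and the insulin receptor (0.78, adjusted p = 0.0183). Irs2 was called in every fit that left out 1 library. Trim24 was lost without the second or the third treated library (limma, adjusted p = 0.0609 and 0.0556) or the first young one (0.0564). Ptpn1 was lost without the second treated library (limma, adjusted p = 0.0835) or the first or the third young library (0.0767 and 0.0615). Lifr was called lower (-0.75, limma, adjusted p = 0.0101), and was lost without the second treated library (adjusted p = 0.0513).

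**Figure D4:**
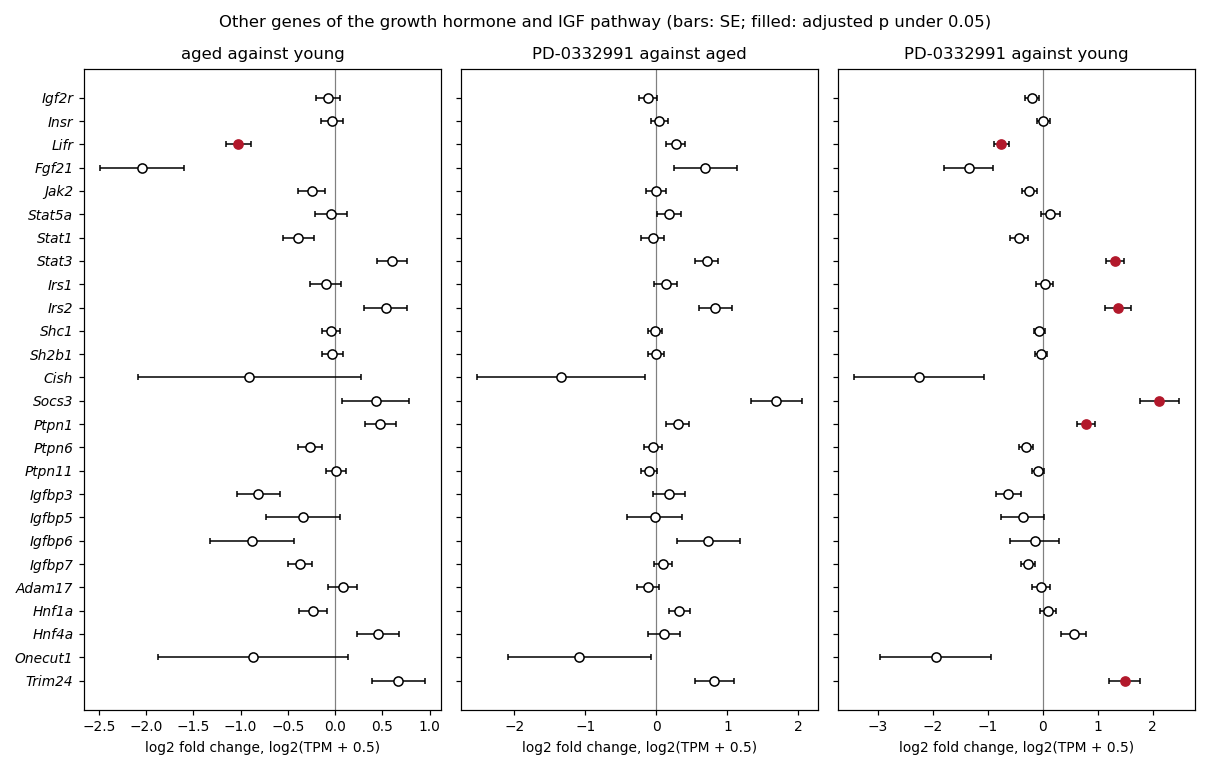
Log2 fold change with its standard error (limma) of the other tested genes of the pathway from left to right in aged against young, treated against aged and treated against young livers, grouped by role, with an axis range for each panel; filled symbols are called at adjusted p under 0.05. Socs3 lies furthest to the right in PD-0332991 against young livers, at 2.12, and Lifr is called to the left in both contrasts with young livers.

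Several parts of the pathway gave no call. Jak2, the kinase gene, and the protease genes below were picked for their roles after their values were seen. Jak2 stood between 2.03 and 2.17 TPM in treated livers, between 1.77 and 2.45 TPM in aged livers and between 2.36 and 2.77 TPM in young livers. The insulin receptor gene Insr averaged 7.997 TPM in treated, 7.74 TPM in aged and 7.94 TPM in young livers. The adaptor gene Shc1 lay between 17.3 and 20.7 TPM over all 9 livers, and Sh2b1, an adaptor of JAK2, between 10.5 and 13.0 TPM. Hnf4a, the hepatocyte transcription factor gene, averaged 160.3 ± 7.18 TPM in treated, 155 ± 51.2 TPM in aged and 109 ± 12.8 TPM in young livers (SD, n = 3 each). For Hnf4a the third aged library, at 96.4 TPM, was the lowest of that group, as for Onecut1. Without it Hnf4a was called higher than in young livers, by 0.56 in treated livers (limma, adjusted p = 0.00473, against 0.153 with it) and by 0.76 in aged livers (adjusted p = 0.00324, against 0.377). Igfbp3, whose product joins IGF1 and the acid-labile subunit and which non-parenchymal liver cells supply, averaged 4.42 TPM in treated, 3.74 TPM in aged and 6.92 TPM in young livers (aged against young, log2 difference -0.81, limma, adjusted p = 0.121). Igfbp7, made by vascular cells, averaged 59.0 TPM in treated, 54.8 TPM in aged and 71.1 TPM in young livers (aged against young -0.37, limma, adjusted p = 0.190). All aged livers lay below all young livers for both genes. The summed level of 8 stellate cell markers was 50.3 to 76.9 TPM in treated, 57.0 to 82.9 TPM in aged and 74.8 to 87.3 TPM in young livers, and that of 7 endothelial markers was 58.4 to 71.2 TPM in treated, 59.1 to 81.4 TPM in aged and 70.8 to 75.8 TPM in young livers. All 8 stellate markers had a log2 difference below 0 in aged against young livers, with a median of -0.31, and Col3a1, a collagen gene, was called lower (-1.17, limma, adjusted p = 0.0186). That call was lost without the first aged library or any 1 young library (limma, adjusted p = 0.0540 to 0.0948). Of the endothelial markers Lyve1 was called lower (-1.22, limma, adjusted p = 0.0449), which was lost without the second aged library, any 1 treated library or any 1 young library (limma, adjusted p = 0.0645 to 0.170). Col3a1 was also called lower in treated than in young livers (-1.25, limma, adjusted p = 0.00603). Their part in the Igfbp3 and Igfbp7 values was not tested. Pappa and Pappa2, genes of proteases that cut IGF binding proteins, were listed at 0 in all 9 libraries, and Adam17, a shedding protease gene, averaged 3.35 TPM in treated, 3.68 TPM in aged and 3.44 TPM in young livers.

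Lists of acute-phase genes and immune cell markers were read beside the Bcl6, Stat3 and Socs3 values. None of 18 acute-phase genes was called between aged and young livers or between treated and aged livers by limma, with 3 and 0 at an unadjusted p under 0.05. Over all 10161 genes tested these unadjusted counts were 1523 and 1854. All 18 acute-phase genes had a log2 difference above 0 in each comparison, with medians of 0.71 for aged against young livers, 0.42 for treated against aged livers and 1.18 for treated against young livers. The second and the third aged library, at 18588 and 12336 TPM, had acute-phase sums within the young range. The top of that range was the second young library, at 19048 TPM, against 11948 and 12583 TPM in the first and the third. The second aged library lay above these last young livers, and the third aged library lay between them. Saa1 was 1482 TPM in the second young library, against 38.3 and 52.3 TPM in the first and the third. Without the first aged library the median for aged against young livers was 0.22, with 15 of 18 above 0 and 0 called by limma (0 at an unadjusted p under 0.05). For treated against aged livers it was then 0.89, with Hp and Saa3 called higher, and 10 genes were called higher in treated than in young livers. When the third aged library was left out, 7 genes were called higher in aged than in young livers and 8 in treated than in young livers, and treated against aged livers had a median of 0.14 with 0 called by limma (1 at an unadjusted p under 0.05). Counts over all genes at an unadjusted p under 0.05 in the fits without the first or the third aged library are given above. With all libraries Fgg, a fibrinogen chain, was the 1 gene called in treated against young livers (limma, adjusted p = 0.0422). That call was lost without any 1 of the 6 libraries of these groups (limma, adjusted p = 0.0802 to 0.136) and with quantile normalization (0.132), rescaling to the listed total (0.0635) or no filter (0.0756). Hemopexin, Hpx, averaged 6089 ± 1135 TPM in treated, 4787 ± 2220.1 TPM in aged and 3495 ± 1029 TPM in young livers (SD, n = 3 each). Haptoglobin, Hp, averaged 5730.4 ± 988 TPM in treated, 3904 ± 2611 TPM in aged and 2480.2 ± 729 TPM in young livers (SD, n = 3 each). The acute-phase sum was 28377 to 41850 TPM in treated, 12336 to 40590 TPM in aged and 11948 to 19048 TPM in young livers. Neutrophil marker sums over 6 genes were 23.9 to 33.4 TPM in treated, 8.59 to 24.9 TPM in aged and 2.67 to 3.55 TPM in young livers. Ngp, Ltf and Camp, at most 0.588 TPM in any library, were not tested, so the sums rest mostly on S100a8, S100a9 and Retnlg. These 3 were called higher in treated than in young livers, where 2.59% of all genes tested were called higher. Retnlg, at most 0.576 TPM in young livers, passed the filter only through aged and treated livers. The calls of S100a8 and S100a9 were lost without the second treated library (limma, adjusted p = 0.0519 and 0.0513). Sums over 7 Kupffer cell markers ran the other way, with 67.0 to 75.9 TPM in treated, 75.4 to 113 TPM in aged and 81.0 to 132 TPM in young livers. Here 3 of the 7, Clec4f, Vsig4 and Timd4, were called lower in treated than in young livers, where 4.29% of all genes tested were called lower. These 3 calls were each lost without some libraries (limma, adjusted p = 0.0521 to 0.0759 for Clec4f without the second or the third young or any 1 treated library, 0.0932 to 0.123 for Vsig4 without the second or the third young or the first or the third treated library, and 0.0610 to 0.133 for Timd4 without any 1 of the 6). The Vsig4 and Timd4 calls were also lost with median-of-ratios scaling (limma, adjusted p = 0.0800 and 0.0694) or quantile normalization (0.0693 and 0.0966). Of the other marker lists, Sox9 of cholangiocytes was called higher in aged than in young livers (1.03, limma, adjusted p = 0.0328) and Ttr of hepatocytes lower in treated than in young livers (-0.41, adjusted p = 0.0357). Of 6 cholangiocyte markers 2 were tested, and the other, Spp1, stood at -0.29. Krt19, Krt7 and Epcam, too low to test, had lower means in aged than in young livers. Sox9 itself was at most 0.746 TPM in young livers and passed the filter only through aged and treated livers. The Sox9 call was lost without any 1 young library, the first or second aged or the first or the third treated library (limma, adjusted p = 0.0515 to 0.142). The Ttr call was lost without any 1 of the 6 libraries compared (limma, adjusted p = 0.0578 to 0.146), and with median-of-ratios scaling (0.110) or quantile normalization (0.413). The part of these cells and of the acute phase in the results above was not tested.

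Genes known to depend on the male pattern of growth hormone release were read from a list of 23, of which 19 were tested. Between PD-0332991 and young livers 2 were called higher and 8 lower, where 2.59% of all genes tested were called higher and 4.29% lower. The median log2 difference was -0.67 against -0.10 over all genes tested. Those called lower were Cyp2d9, Hsd3b5, Keg1, Ugt2b1, Mup3, Serpina1e, Gstp1 and Cspg5. Those called higher were Cyp7b1, which hydroxylates oxysterols, and Susd4, a complement regulator. The direction within the list was thus mixed, and the Cyp2d, Mup, Serpina1 and Gstp genes have near-identical copies among which an abundance estimate can be split, so their values are uncertain. Mup1 and Mup7 of the list, like Alb, were listed at 0 in all 9 libraries and were not tested. Of the 8 genes lower, Cyp2d9, Hsd3b5 and Cspg5 were called in every fit that left out 1 library, as was Susd4 among those higher. Cspg5, at most 0.984 TPM in aged and 0.225 TPM in treated livers, passed the filter only through young livers. The fits that left out a library kept the same 10161 genes, so they do not test what the filter did to the Cspg5 call. The other 6 calls were each lost on leaving out some library (limma). Gstp1 was lost without the second treated library (adjusted p = 0.0517), and Keg1 without that library or the first or the third young one (0.0656 to 0.0772). Cyp7b1 was lost without the second or the third treated or the first or second young library (0.0571 to 0.0835), and Serpina1e without the second or the third treated or the first or the third young library (0.0554 to 0.0909). Mup3 was lost without the first or second treated or the second or the third young library (0.0634 to 0.1004), and Ugt2b1 without any treated library or the second or the third young one (0.0560 to 0.113). Scaling and filtering mattered as well (limma, adjusted p): Mup3 was lost with quantile normalization (0.134), median-of-ratios scaling (0.0528) or no filter (0.0526), Ugt2b1 with median-of-ratios scaling (0.0754) or no filter (0.0584), and Serpina1e with quantile normalization (0.131). Leaving out the third aged library gave 10 called lower, and leaving out the first gave 9. Over all genes tested 2923 and 2531 then had an unadjusted p under 0.05 (limma), against 2524 with all libraries. Of the genes not called, Mup20 averaged 9937 TPM in treated, 13323 TPM in aged and 10021 TPM in young livers, and Nudt7 averaged 560.0 TPM in treated, 600.1 TPM in aged and 785 TPM in young livers.

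Between PD-0332991 and aged livers, Cyp2d9 and Gstp1 were called lower and none of the 19 higher, with a median of -0.37 against -0.09 over all genes. The shares called over all genes tested were 0.61% higher and 0.837% lower. Cyp2d9, a cytochrome P450, averaged 570.2 ± 30.4 TPM in treated, 787 ± 55.2 TPM in aged and 909 ± 70.7 TPM in young livers (SD, n = 3 each). Its log2 difference against aged livers was -0.46 (limma, adjusted p = 0.0395), lost without any 1 treated library (0.103 to 0.119), the second aged library (0.131) or the first or the third young library (0.0704 and 0.0534). It was also lost with median-of-ratios scaling (-0.36, limma, adjusted p = 0.0866), quantile normalization (0.0680), no filter (0.0636) or only the 2 groups in the fit (0.0844). Gstp1, a glutathione transferase, averaged 1040.2 ± 172 TPM in treated, 1837 ± 47.9 TPM in aged and 1777 ± 306 TPM in young livers. For Gstp1 the log2 difference against aged livers was -0.83 (limma, adjusted p = 0.0193), lost without the second aged library (0.0582), the first or second treated library (0.0512 and 0.0792) or with no filter (0.0564). Between aged and young livers Susd4 was called higher (1.49, limma, adjusted p = 0.0013) and Keg1 lower (-0.66, limma, adjusted p = 0.0288), where 0.65% of all genes tested were called higher and 0.453% lower. Susd4 was called in every fit that left out 1 library, and Keg1 was lost without the first or second aged library or any 1 young library (limma, adjusted p = 0.0551 to 0.118), with no filter (0.0679) or with only the 2 groups in the fit (0.0713). There were 5 genes of the list called lower without the third aged library. Over all genes tested 2260 then had an unadjusted p under 0.05 (limma), against 1523 with that library.

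**Figure D5:**
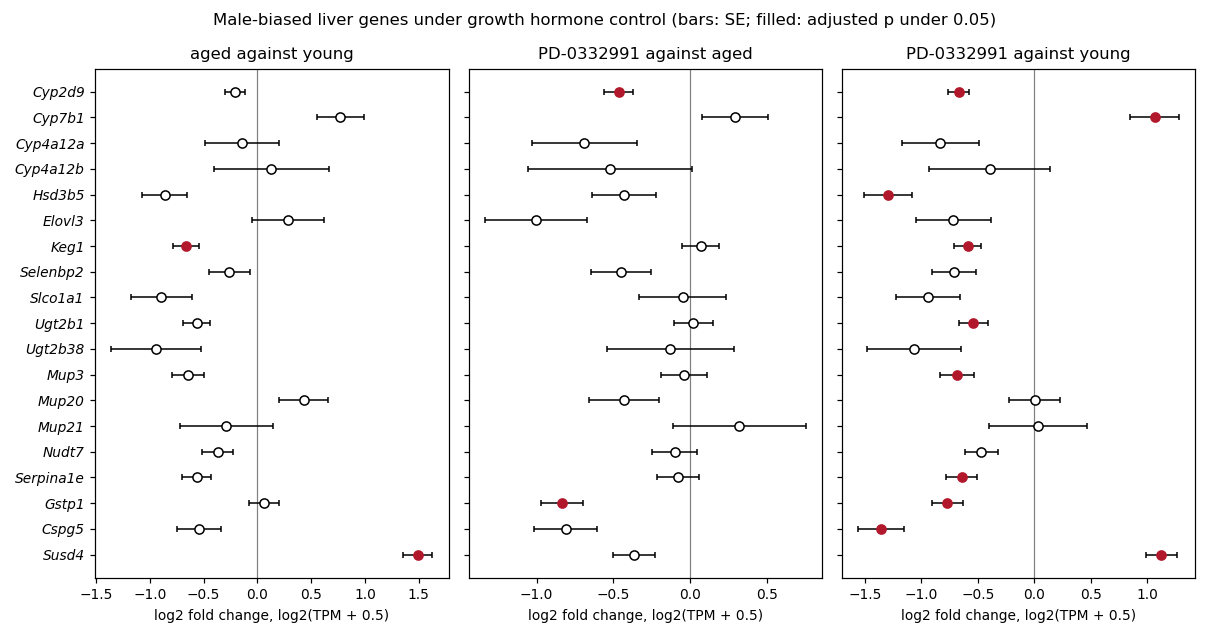
Log2 fold change with its standard error (limma) of the 19 tested genes known to depend on the male growth hormone pattern, from left to right in aged against young, treated against aged and treated against young livers, with an axis range for each panel; filled symbols are called at adjusted p under 0.05. Against young livers 8 genes are called lower and 2 higher in treated livers.

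Female-biased genes were mostly too low to test: 7 of 24 passed the filter. Between aged and young livers Cyp2b10, a drug-metabolising cytochrome, was called higher (log2 difference 1.60, limma, adjusted p = 0.0133) and Fmo4, a flavin monooxygenase, lower (-1.06, limma, adjusted p = 0.0323). The shares called over all genes tested were 0.65% higher and 0.453% lower. The Cyp2b10 call was lost without the first or the third young library (limma, adjusted p = 0.0514 and 0.0569), and the Fmo4 call without the first or second young, the first or second aged or the third treated library (limma, adjusted p = 0.0550 to 0.144), with no filter (0.0679) or only the 2 groups in the fit (0.0794). None was called between treated and aged livers by limma, where 2 had an unadjusted p under 0.05, against 1854 of all 10161 genes tested. Against young livers Fmo1 and Fmo4 were called lower in treated livers, where 4.29% of all genes tested were called lower. Fmo1 was lost without the second or the third treated or the first or the third young library (limma, adjusted p = 0.0832 to 0.0939) or with median-of-ratios scaling (0.0521). Cyp17a1, a steroid hydroxylase gene, averaged 6.69 TPM in treated, 3.03 TPM in aged and 3.23 TPM in young livers without a call. The medians of these 7 genes were -0.29, -0.23 and -0.28 for aged against young, treated against aged and treated against young livers.

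Of 9 insulin and FOXO responsive genes 8 were tested, beside which the Igfbp1 values can be read. None was called between aged and young livers or between treated and aged livers by limma, with 0 and 3 at an unadjusted p under 0.05. Over all 10161 genes tested these unadjusted counts were 1523 and 1854. The list went both ways: 3 of 8 genes had a log2 difference above 0 in aged against young livers (median -0.13), 5 of 8 in treated against aged livers (median 0.31) and 4 of 8 in treated against young livers (median -0.04). Pck1, the gluconeogenic enzyme gene that FOXO1 drives, stood at 866, 813 and 1067 TPM in treated livers, at 418, 235 and 797 TPM in aged livers, and at 434, 382 and 482 TPM in young livers. All treated livers lay above all others, and the third aged liver was the highest untreated one, as it was among aged livers for Igfbp1. The difference was 1.09 against aged livers (limma, adjusted p = 0.192), and without the third aged library it was 1.53 and called (adjusted p = 0.00880). Tat, which breaks down tyrosine, stood at 703, 629 and 789 TPM in treated livers, at 418, 187 and 697 TPM in aged livers, and at 359, 310 and 426 TPM in young livers. For Tat the third aged liver lay within the treated range, and the difference from aged livers was 0.89 with it (limma, adjusted p = 0.305) and 1.33 without it (adjusted p = 0.0722). G6pc, the other classical gluconeogenic gene of the list, chosen after its values were seen, ran the opposite way, with 59.7, 42.4 and 71.9 TPM in treated livers, 81.7, 57.8 and 148 TPM in aged livers, and 142, 76.8 and 289 TPM in young livers. Every treated liver lay below every young liver for G6pc, without a call (-1.36, limma, adjusted p = 0.175). Srebf1, the lipogenic transcription factor gene that insulin induces, was called lower in treated than in young livers (-1.36, limma, adjusted p = 0.0377), with means of 12.8 TPM in treated, 40.8 TPM in aged and 33.2 TPM in young livers. That call was lost without any 1 of the 6 libraries of these groups (limma, adjusted p = 0.0506 to 0.131) or with no filter (0.0510). Against aged livers Srebf1 was at -1.57 (limma, adjusted p = 0.0529). Without the third aged library Srebf1 was called lower and Pck1 higher in treated than in aged livers, and Pdk4 was called lower in aged than in young livers.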

How the data were processed

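Liver RNA of 9 libraries was compared by group, as the labels give the groups and replicate numbers. The authors deposited 1 table per library of TPM values, a relative transcript abundance per gene. Per the submitters' processing notes the tool was kallisto and the genome build mm10. Its version, the transcript set and how transcripts were summed to genes are not stated in these sources. Paired-end libraries were made with an Illumina TruSeq RNA kit, per the labels' protocols, and strand is not stated. The listed values summed to 53.1% to 57.7% of the full TPM scale. Of 23444 rows 4 shared a symbol with another row and were left out. TPM keeps no depth, so no counting interval is given.

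Values were tested as log2(TPM + 0.5), so changes of low genes are understated, in genes with 1 TPM or more in at least 3 libraries. All 9 libraries entered 1 fit with the group as the only term (limma 3.58.1 in R 4.3.3, trend and robust variance). P-values were two-sided and Benjamini-Hochberg adjusted over all 10161 genes, and genes were called at an adjusted p under 0.05. The step was tested on simulated data. Whether each library is a separate mouse is not in the labels, so p-values measure the spread between libraries. No pair of libraries held identical values.

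The 10 genes and all gene lists were chosen with earlier results of these data known. Besides the 10 genes, the text names the called genes of each list and, for most lists, up to 2 others by highest mean TPM, and, for genes called among the 10 and for Igf1, the 3 genes whose levels lay closest (mean TPM at least 5). Promoter windows are from RefSeq (GRCm38.p6) and gene positions from GENCODE M21, both on the build of the files. In all, 18 alternatives were run. They changed the pseudocount, the filter, the scaling, the libraries fitted or the use of replicate numbers, or left out a library. After the values were seen, the gene lists were also summarised without the first or the third aged library.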

Additional observations from a re-analysis of the deposited data

How the results depend on the processing

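Over 18 alternatives, 487 of 540 differences of the 10 genes kept their sign and their side of the threshold, 23 lost a call, 7 gained one and 23 changed sign. Sign changes touched small or unsteady differences that were not called. With median-of-ratios scaling the log2 difference of treated against aged livers was 0.045 for Ghr and 0.10 for Igf1, and that of treated against young livers was 0.081 for Prlr. With quantile normalization Igf1 was at 0.021 and Prlr at 0.0097 in those comparisons, and with a pseudocount of 1 Socs2 was at -0.0025 in treated against aged livers. On leaving out each library in turn, treated against aged differences ranged from -0.14 to 0.031 for Ghr, -0.088 to 0.064 for Igf1, -0.0071 to 0.086 for Igfbp4, -1.39 to 1.12 for Socs2 and -0.065 to 0.14 for Stat5b. Prlr in treated against young livers ranged from -0.14 to 0.044. In aged against young livers the ranges were -0.084 to 0.51 for Bcl6, -0.78 to 0.31 for Igfbp1 and -1.81 to 0.69 for Socs2. Median-of-ratios scaling moved the median of all genes by 0.12 in treated against young livers and by 0.10 in treated against aged livers.

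Among the 10 genes, leaving out a library gave 0 to 2 calls in aged against young, 0 to 2 in treated against aged and 0 to 3 in treated against young livers. The 1 call of treated against aged livers became 0 with median-of-ratios scaling, with no filter and with only the groups compared in the fit. The 2 calls of treated against young livers became 1 with no filter, where Bcl6 missed the threshold (limma, adjusted p = 0.0601). Ghr was called lower there with only the groups compared, quantile normalization or rescaling to the listed total (limma, adjusted p = 0.0343, 0.0391 and 0.0413). Over all genes, leaving out a library gave 16 to 696 calls in aged against young (112 with all), 7 to 392 in treated against aged (147) and 153 to 1263 in treated against young livers (699). No filter gave 62 and 29 calls in aged against young and treated against aged livers. Fitting only the groups compared gave 49 calls in aged against young, 25 in treated against aged and 1282 in treated against young livers. In treated against aged livers 62 genes were called higher and 85 lower, against 119 and 55 with median-of-ratios scaling and 88 and 56 with quantile normalization. In treated against young livers these were 263 and 436, against 386 and 228, and 308 and 310.

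Libraries share replicate numbers across groups, but the labels do not say what a number marks. Deviations of same-numbered libraries correlated at -0.220 to 0.166, over 0.1 in 2 of 9 pairs, so the numbers were not taken as pairs. With the replicate number as a block, 60 genes were called in treated against aged, 91 in aged against young and 492 in treated against young livers. Under the block 0 of the 10 genes were called in treated against aged livers (limma, Igfbp2 adjusted p = 0.0657). The depth behind low values such as Cspg5 or Irs2 is unknown, which limits what their differences show.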
